A study of Mus musculus with 12 samples.

Results

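Regions of the mouse genome that carried both H3K4me1 and H3K4me2 in vehicle-treated C2C12 cells, neither of these marks in S2101-treated cells, and H3K4me3 in neither are described here. They were found by pooling 6 peak lists and joining peaks that overlap by 1 bp or more, which gave 51372 regions. Of these, 3501 held both marks with vehicle and no H3K4me3 in either treatment, and 1035 of the 3501 had no H3K4me1 or H3K4me2 peak with S2101. The share is 29.6% (95% Wilson interval 28.1 to 31.1%). The members were chosen by the presence and absence of peaks in these same lists, so this share describes the choice and supports nothing further. A region without a peak is one where the authors' caller listed none, which is not a measure of absent methylation.

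C2C12 is a mouse myoblast line that exits the cell cycle and fuses into myotubes when serum is lowered. The compared cells were differentiated for 48 h, to day 2, in DMEM with horse serum. One group also received S2101 at 10 µM, an inhibitor of the demethylase LSD1, and the other received the vehicle. Chromatin was crosslinked with formaldehyde, sonicated and precipitated with antibodies to H3K4me1, H3K4me2 or H3K4me3, and each mark and treatment has 1 library. The H3K4me1 and H3K4me2 libraries belong to experiment 1 and those of H3K4me3 to experiment 2, so what sets H3K4me3 apart may be mark or experiment, and these cannot be told apart. No difference between treatments has a replicate check, no test between treatments was possible, and read depth is unknown. Intervals cover counting error only, and neighbouring regions are not independent.

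Lysine 4 of histone H3 is methylated stepwise. Trimethylation marks active promoters, monomethylation is found at enhancers and to the sides of promoters, and dimethylation is seen at either. Enhancers are stretches of DNA, often far from the gene they act on, where transcription factors bind, and in muscle cells many are bound by MyoD and MEF2 proteins. LSD1 (Kdm1a) takes methyl groups off mono- and dimethylated H3K4 and acts in complexes with other chromatin regulators.

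The label "enhancer-like" was checked as far as the lists allow. Members held H3K4me1 and H3K4me2 without H3K4me3 by choice. The gap from a member to the nearest H3K4me3 peak of either treatment, which the rule did not set beyond 0 bp, had a median of 24768 bp (95% order-statistic interval 22167 to 28493 bp; quartiles 7287 and 59151 bp). An H3K4me3 peak lay within 1 kb of 69 members, or 6.67%, and within 5 kb of 197, or 19.0%. The other regions with both vehicle marks and no H3K4me3 had shares near these. Within 1 kb they were 4.98% where H3K4me1 alone was kept with S2101, 5.43% where H3K4me2 alone was kept and 4.58% where both were. Within 5 kb they were 19.6, 21.7 and 22.1% in the same order. Most members thus lay away from H3K4me3 and a minority close to it, as did the other regions. Acetylation, open chromatin and expression were not measured in these lists, and gene positions of the build were not used here, so neither activity nor target genes are given. For the same reason the cell type was not checked against its marker genes.

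With vehicle the members were short and their peaks stood low in the H3K4me2 list and near the middle of the H3K4me1 list. Together they covered 1.19 Mb, from 428 to 2987 bp each, with a median width of 1070 bp. They took 1253 of the 40432 vehicle H3K4me1 peaks and 1038 of the 21447 vehicle H3K4me2 peaks, which is 3.10% and 4.84% of these lists. The score of a peak is the authors' own value from the peak caller and ranks peaks within a list only. The highest H3K4me1 score in a member had a median of 217 (quartiles 151 and 316, range 100.1 to 1198), at the median percentile 60.5 of the vehicle H3K4me1 list. The highest H3K4me2 score had a median of 154 (quartiles 121 and 209, range 100.02 to 655), at the median percentile 14.0 of the vehicle H3K4me2 list. Over all 3501 regions with both vehicle marks and no H3K4me3, the median percentiles were 80.6 for H3K4me1 and 19.3 for H3K4me2. A low standing in the H3K4me2 list was thus shared by the whole set. The 2 scores hardly moved together across members (Spearman's rho 0.024 over 1035 regions, a description over regions of the same 2 libraries).

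The other 2466 regions with both vehicle marks and no H3K4me3 kept something with S2101. H3K4me1 without H3K4me2 was kept in 1446 regions, H3K4me2 without H3K4me1 in 387, and both marks in 633. H3K4me1 was thus absent with S2101 from 1422 of the 3501 regions (40.6%) and H3K4me2 from 2481 (70.9%). The product of these shares over 3501 regions is 1008, close to the 1035 that had neither. Regions with the vehicle mark alone and no H3K4me3 had larger shares of absence, 69.6% of 27319 for H3K4me1 and 76.3% of 1468 for H3K4me2. Over all regions with the vehicle mark and no H3K4me3, the shares were 66.3% of 30820 for H3K4me1 and 72.5% of 4969 for H3K4me2. Where H3K4me3 lay in the region as well, 139 of 5410 regions with both vehicle marks, or 2.57%, had neither H3K4me1 nor H3K4me2 with S2101. Those regions are not members. Over all 8911 regions with both vehicle marks the share was 13.2%.

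Which of the 4 outcomes a region had followed its vehicle scores. In members the H3K4me1 score was lower than in regions that kept H3K4me1 only (medians 217 and 483) and close to that of regions that kept H3K4me2 only (214). The H3K4me2 score in members, 154 at the median, was nearest to that of regions that kept H3K4me1 only (171) and lower than in regions that kept H3K4me2 only (246). Regions that kept both had medians of 483 and 288. At the median, the vehicle score of each mark was thus higher in regions that kept that mark. Both medians of members were below those of all 3501 regions, 341 for H3K4me1 and 183 for H3K4me2. The score is the highest in a region. Joining S2101 peaks to a region can bring more vehicle peaks into it and raise this score. The part of such joining in the comparisons of scores was not tested. Over quintiles of the 3501 regions by H3K4me1 score, the share of members was 55.3% in the lowest (95% Wilson interval 51.7 to 59.0%), then 43.4%, 30.1% and 15.4%, and 3.43% in the highest (2.31 to 5.05%). By H3K4me2 score it was 42.2% in the lowest quintile (38.6 to 45.9%), then 36.7%, 32.0% and 24.9%, and 12% in the highest (9.80 to 14.6%). In the lowest quintile of both scores, 117 of 170 regions were members (68.8%), and in the highest quintile of both, 2 of 219 (0.913%, 0.251 to 3.27%). Read depth could not be set beside these shares, and its part in them was not tested. The S2101 H3K4me1 list as a whole held 20664 peaks over 9.34 Mb, against 40432 over 26.9 Mb with vehicle. For H3K4me2 it was 24444 peaks over 15.9 Mb with S2101 and 21447 over 34.1 Mb with vehicle.

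**Figure D1:**
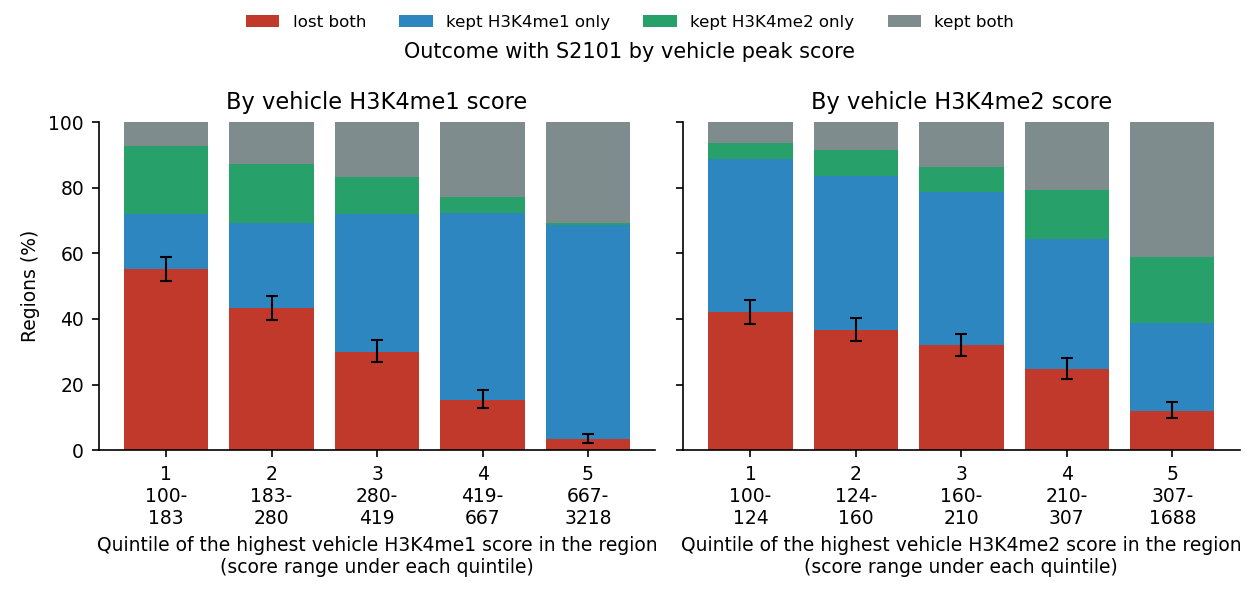
Stacked bars give the percent of the 3501 regions with both vehicle marks and no H3K4me3 by outcome with S2101, over quintiles of the highest vehicle H3K4me1 score (left) and H3K4me2 score (right) in the region. Error bars are 95% Wilson intervals of the share that lost both. The share that lost both is 55.3% in the lowest and 3.43% in the highest H3K4me1 quintile, and 42.2% and 12% in those of H3K4me2.

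**Figure D2:**
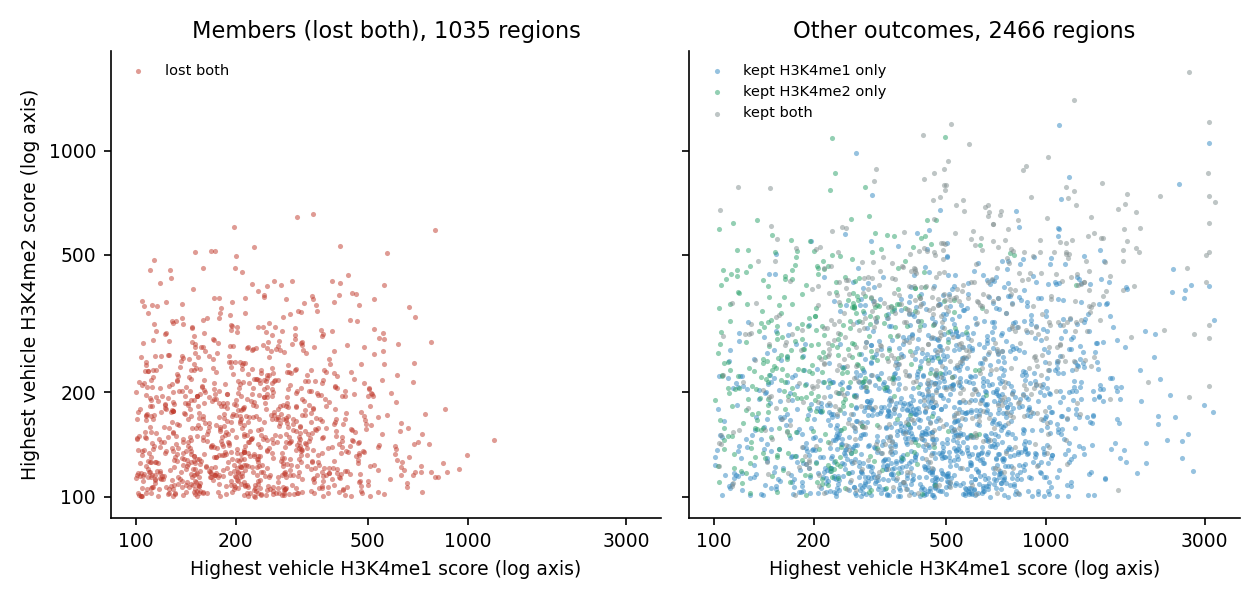
Each point is a region, placed by its highest vehicle H3K4me1 score and highest vehicle H3K4me2 score, both on log axes, for the 1035 members (left) and the 2466 regions with other outcomes (right, coloured by outcome). Members end at an H3K4me1 score of 1198 and an H3K4me2 score of 655, while the other regions reach 3218 and 1688.

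Inside the members the H3K4me2 peak was usually the wider one. In 822 members there was 1 peak of each mark. There the H3K4me1 peak was 588 bp wide at the median and the H3K4me2 peak 783 bp, and the H3K4me2 peak was the wider one in 596 (72.5%). Among other regions with 1 peak of each mark, this share was higher where H3K4me2 only was kept (85.2%). It was 34.1% where H3K4me1 only was kept and 47.6% where both were. Their midpoints lay 218 bp apart at the median (quartiles 89.5 and 384 bp). The length shared by the marks had a median of 499 bp and ran from 2 to 1654 bp. The peaks were staggered, each reaching beyond the other on a side, in 525 members (50.7% of 1035, 95% Wilson interval 47.7 to 53.8%). The H3K4me1 peak lay wholly inside the H3K4me2 peak in 233 (22.5%), and the H3K4me2 peak inside the H3K4me1 peak in 64 (6.18%). In regions that kept H3K4me1 only these 3 forms made up 34.4, 5.6 and 16.9%. In those that kept H3K4me2 only they made up 38.2, 34.4 and 2.33%, and in those that kept both 25.8, 8.37 and 11.4%.

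In 204 members (19.7%, 17.4 to 22.2%), 2 H3K4me1 peaks stood at 1 H3K4me2 peak. The gap between the 2 H3K4me1 peaks was 181 bp wide at the median and lay within the H3K4me2 peak in all 204, which follows from their being joined by a single H3K4me2 peak with no other list present. Its centre was 154 bp from the centre of the H3K4me2 peak at the median. In 107 of the 204 (52.5%) the H3K4me1 pair reached beyond the H3K4me2 peak on both sides. The paired form was commoner in regions that kept H3K4me1 only (507 of 1446, 35.1%) and in those that kept both (232 of 633, 36.7%). In regions that kept H3K4me2 only it was found in 89 of 387 (23.0%, 19.1 to 27.4%), with an interval that overlaps that of the members. The same comparison was made within quintiles of the H3K4me1 score. Regions with at least 2 H3K4me1 peaks made up 15.2% of members and 18.8% of the other regions in the lowest quintile. These shares were 21.7% and 39.9% in the second quintile, 26.5% and 46.0% in the middle quintile, and 26.9% and 50% in the fourth quintile. In the highest quintile, which held only 24 members, they were 8.33% and 45%. Members were also narrower than the other regions within every quintile. In the middle quintile their median width was 1202 bp (95% interval 1101 to 1290 bp), against 1472 bp (1409 to 1551 bp). The median width of members was below that of the other regions pooled on all 19 autosomes, and nearest to that of regions that kept H3K4me2 only, 1216 bp (1149 to 1269 bp). Joining S2101 peaks to a region can widen it and bring more vehicle H3K4me1 peaks into it, and such regions are not members by the rule. In regions that kept H3K4me1 only, the gap between the pair lay within the H3K4me2 peak in 460 of 507. It did so in 88 of 89 that kept H3K4me2 only and in 222 of 232 that kept both. The part of such joining in the comparisons of pairs and widths was not tested.

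The 10 members that ranked best on both vehicle scores show what the rule picks at its upper end, and they were chosen for these scores. By the rule, none had any base under an S2101 H3K4me1, S2101 H3K4me2 or H3K4me3 peak.

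The first, chr5:117812405-117814367 (mm9), was a single H3K4me1 peak of 1963 bp with vehicle (score 794) that enclosed an H3K4me2 peak of 1647 bp (score 590). Around it the S2101 lists were not empty, with an H3K4me2 peak 903 bp away, an H3K4me1 peak 1776 bp away and an H3K4me3 peak 3386 bp away. Neighbouring vehicle peaks of both marks thus overlapped S2101 peaks. One was a vehicle H3K4me2 peak of 808 bp with a score of 157, over which S2101 had a peak of 366 bp. Another, of 1776 bp with a score of 609, stood at H3K4me3 and had S2101 H3K4me2 peaks of 696 and 374 bp over it.

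The second, chr1:193485126-193487472, stood apart from everything listed with S2101. With vehicle it held H3K4me1 peaks of 943 and 1157 bp (scores 571 and 422) and an H3K4me2 peak of 1697 bp (score 507). The nearest S2101 peaks were H3K4me3 at 8230 bp, H3K4me1 at 31999 bp and H3K4me2 at 53681 bp, while vehicle H3K4me3 was 53750 bp away. The H3K4me3 peak nearest to this member was therefore listed with S2101 and not with vehicle.

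The third, chr8:111235107-111237149, lay beside a promoter-like domain. S2101 H3K4me3 began 483 bp away as a peak of 3263 bp and vehicle H3K4me3 762 bp away as a peak of 2700 bp, both at a score of 3100. In that domain S2101 H3K4me2 was listed in separate peaks, of which the nearest was 622 bp from the member, and vehicle H3K4me2 in 1 peak of 3500 bp. The member itself held vehicle H3K4me1 over 1205 bp and vehicle H3K4me2 over 1384 bp. The same setting recurred on chr17:56324995-56326664, with S2101 H3K4me1 at 42 bp and S2101 H3K4me3 at 954 bp. It recurred on chr13:49416614-49418296, with S2101 H3K4me1 at 255 bp and S2101 H3K4me3 at 605 bp.

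Of the remaining 5, chr10:94011882-94014572 held H3K4me1 over 2560 bp with vehicle as a pair of peaks, with S2101 H3K4me1 2491 bp away. At chr11:98812498-98813606, S2101 H3K4me1 lay 515 bp away as a peak of 251 bp, over a vehicle H3K4me1 peak of 459 bp. The members chr2:127077160-127079058 and chr1:184457423-184459111 each had a pair of vehicle H3K4me1 peaks over 1 H3K4me2 peak. On chromosome 1 the pair, of 805 and 814 bp with scores of 554 and 539, straddled the H3K4me2 peak of 1244 bp on both sides, and the nearest S2101 H3K4me1 and H3K4me2 peaks were 5617 and 7208 bp away. The last, chr4:129504624-129507335, held 2 peaks of each mark.

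All 10 lay within 10 kb of an H3K4me3 peak, at 483 to 8230 bp. In a count made after this was seen, 39 of the 100 best-ranked members were that near (39.0%, 95% Wilson interval 30.0 to 48.8%), and 284 of the remaining 935 (30.4%, 27.5 to 33.4%). The 100 include the 10 that prompted the count, so their share in part restates those 10. The median gaps of the 100 and of the 935 were 24055 and 24843 bp and their intervals overlapped.

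**Figure D3:**
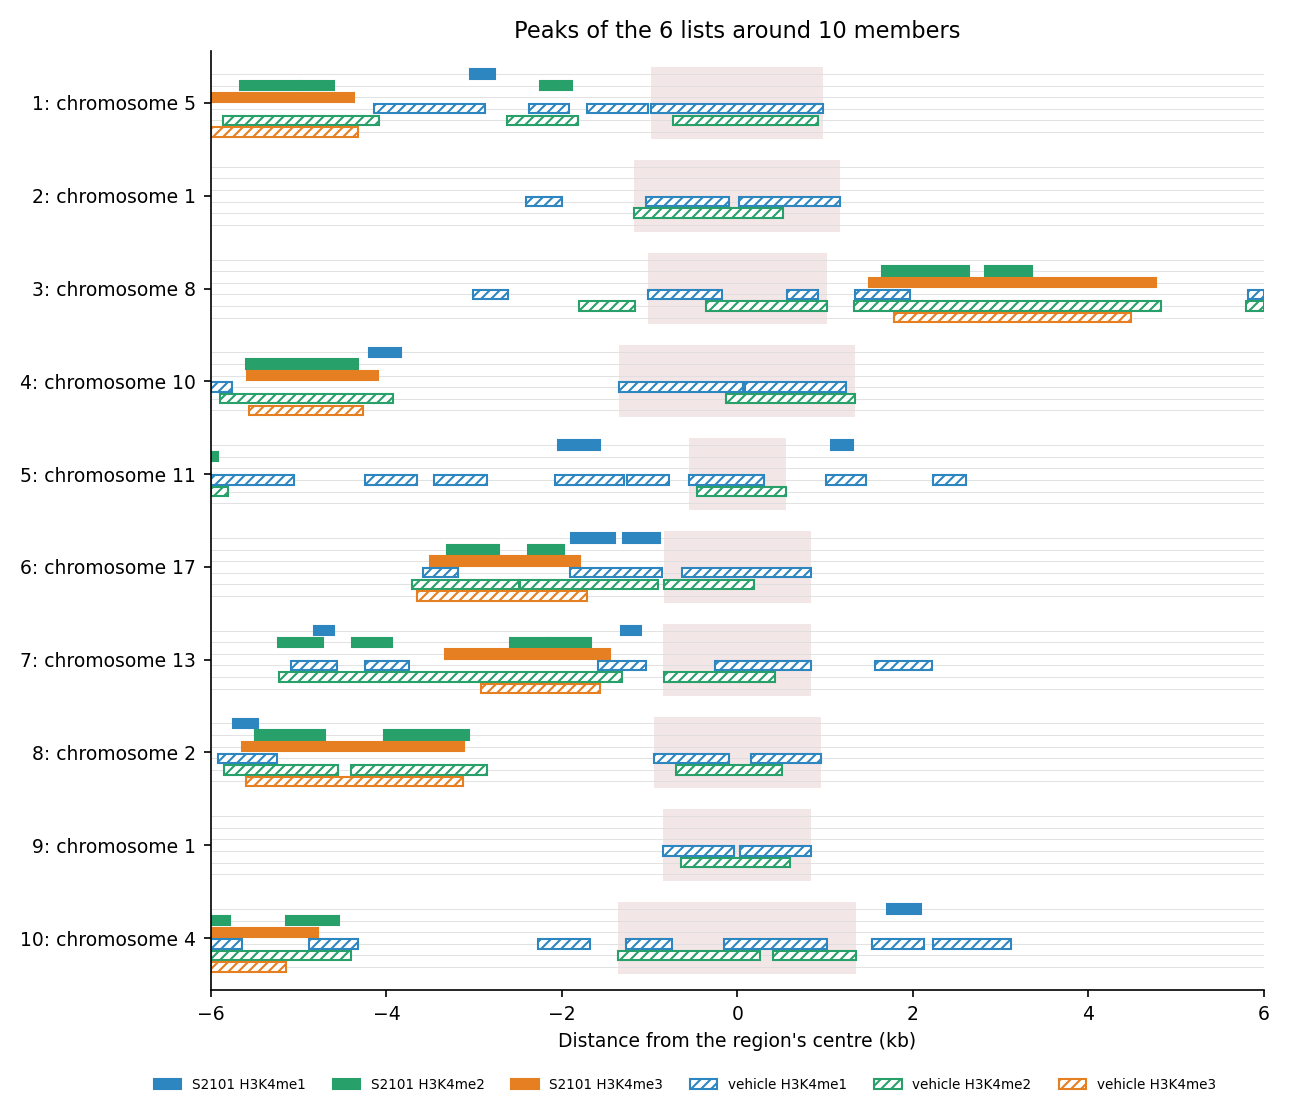
Peaks of the 6 lists (S2101 filled, vehicle hatched) within 6 kb of the centres of the 10 members that ranked best on both vehicle scores, numbered in order of rank. Shading marks the member. The vehicle H3K4me1 and H3K4me2 peaks in the shaded spans have no S2101 peak above them by choice. S2101 peaks of all 3 marks stand in the flanks of several members and none within 6 kb of the second and ninth.

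The widest member was chr7:108058021-108061007, 2987 bp, where vehicle H3K4me1 covered 2755 bp (score 814) and vehicle H3K4me2 688 bp (score 114). Next came chr14:77179503-77182265, with vehicle H3K4me1 over 1957 bp (score 412) and vehicle H3K4me2 over 1973 bp (score 531). It was remote from S2101 H3K4me2, at 222486 bp, and from H3K4me3, at 222388 bp, and had an S2101 H3K4me1 peak 4016 bp away. The member chr11:86405481-86408211 had both marks over 2137 and 2248 bp. At chr11:29536737-29539459 they covered 1634 and 2196 bp, and the nearest S2101 H3K4me1 peak was 133753 bp away. The last of the 5 widest, on chromosome 4, is also the tenth by rank.

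Just inside the rule, an S2101 H3K4me1 peak of 577 bp (score 163) began at the base after chr8:87853165-87854309. The vehicle H3K4me1 peak there, 632 bp with a score of 241, ended at the last base of the member. The next were chr2:118373153-118374064, with S2101 H3K4me2 2 bp away, and chr2:169973205-169973832, with S2101 H3K4me2 3 bp away. The 3 regions outside the rule with the fewest bases covered by S2101 peaks were not all alike. The region chr4:88427307-88427628 is 322 bp wide and kept both marks, with S2101 H3K4me1 over 162 bp, against 167 bp with vehicle, and S2101 H3K4me2 over 139 bp, against 322 bp with vehicle. In chr2:121986755-121987842 an S2101 H3K4me1 peak covered 197 of 1088 bp, and in chr9:121685143-121686106 an S2101 H3K4me2 peak covered 213 of 964 bp. Over the 2466 regions outside the rule the median covered length was 676 bp. Since S2101 peaks were merged into these regions whole, this length includes each S2101 peak in full and does not measure how far it overlaps a vehicle peak.

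S2101 peaks lay near many members, H3K4me1 more often than H3K4me2. Within 1 kb there was an S2101 H3K4me1 peak for 229 members (22.1%, 95% Wilson interval 19.7 to 24.8%) and an S2101 H3K4me2 peak for 70 (6.76%, 5.39 to 8.46%). Neither share was particular to members. S2101 H3K4me1 was that near to 20.7% of regions that kept H3K4me2 only, and S2101 H3K4me2 to 6.92% of those that kept H3K4me1 only. Either was within 1 kb of 276 members, within 10 kb of 631 (61.0%) and within 50 kb of 918 (88.7%). The median gap to the nearest of them was 5407 bp (4587 to 6695 bp). Of the 229 nearest S2101 H3K4me1 peaks, 173 (75.5%, 69.6 to 80.7%) overlapped a vehicle H3K4me1 peak outside the member, so they stood where the vehicle list also had a peak. The other 56 did not. Near regions that kept H3K4me2 only, a smaller share did, 47 of 80 (58.8%, 47.8 to 68.9%). Of the 70 nearest S2101 H3K4me2 peaks, 56 overlapped a vehicle H3K4me2 peak and 39 (55.7%) overlapped H3K4me3, against 5 of the 229 H3K4me1 peaks (2.18%). Near regions that kept H3K4me1 only, 85 of 100 such H3K4me2 peaks overlapped a vehicle H3K4me2 peak and 50 overlapped H3K4me3 (50%). Near those that kept H3K4me2 only, 2.5% of 80 such H3K4me1 peaks overlapped H3K4me3.

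At 1 kb to either side of the members' centres, an S2101 H3K4me1 peak covered 5.89 and 5.6% of members and a vehicle H3K4me1 peak 20.8 and 18.1%. At 2 kb these shares were 3.57 and 3.19% with S2101, and 9.18 and 8.12% with vehicle. Averaged over both flanks from 10 to 20 kb, H3K4me1 covered 1.62% of positions with S2101 and 4.52% with vehicle. For H3K4me2 the values were 1.89% and 4.04%, and for H3K4me3 3.06% and 2.81%. The flanks of members thus showed the lower S2101 coverage of H3K4me1 and H3K4me2 and the slightly higher S2101 coverage of H3K4me3 that the whole lists have, at 9.34 against 26.9 Mb, 15.9 against 34.1 Mb and 26.8 against 24.4 Mb. Around regions that kept H3K4me1 only, the 10 to 20 kb flanks were covered by H3K4me1 at 4.02% with S2101 and 9.93% with vehicle. Around regions that kept H3K4me2 only, these shares were 1.54% with S2101 and 4.32% with vehicle, close to those of members.

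**Figure D4:**
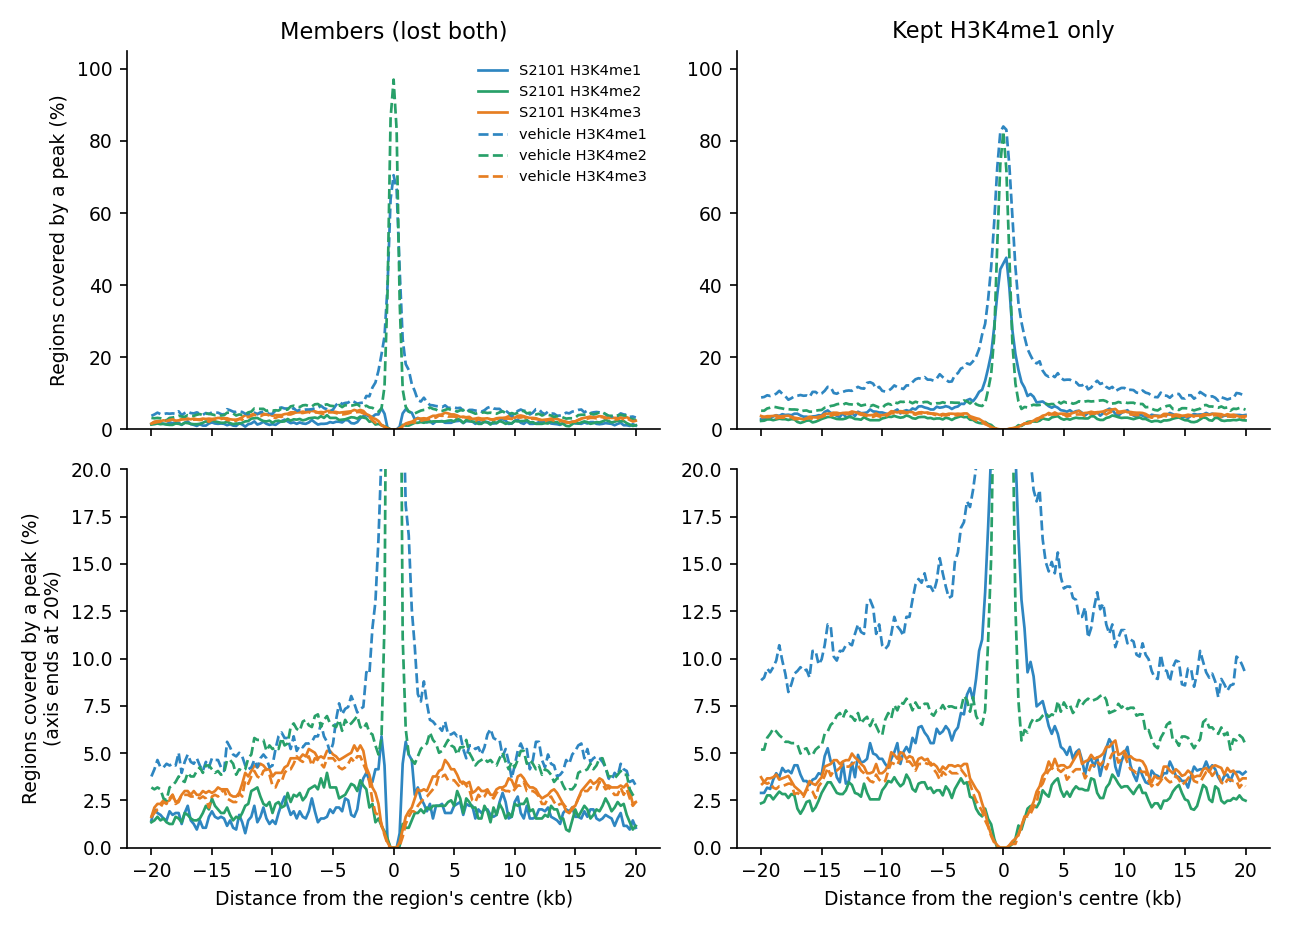
Percent of regions covered by a peak at distances up to 20 kb from the region's centre, for the 1035 members (left) and the 1446 regions that kept H3K4me1 only (right). Solid lines are S2101 lists and dashed lines vehicle lists, and the lower panels show the same lines with the axis ending at 20%. All S2101 lines and both H3K4me3 lines are at 0 in the members' centres by choice, and S2101 H3K4me1 reaches 5.89 and 5.6% at 1 kb on either side.

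The vehicle peaks next to members were found again with S2101 about as often as peaks elsewhere. This was counted over vehicle peaks outside H3K4me3 and outside all 3501 regions. A neighbouring peak whose S2101 peak reached a region was merged into it and left this count. The shares closest to the regions therefore depend in part on the rule. Of 746 H3K4me1 peaks within 2 kb of a member, 32.6% overlapped an S2101 peak (95% Wilson interval 29.3 to 36.0%). From 2 to 10 kb it was 32.2% of 1003, from 10 to 50 kb 33.1% of 3187, and over all 28909 such peaks 31.9% (31.4 to 32.4%). Beside regions that kept H3K4me1 only, the share was 43.5% of 1466 within 2 kb (40.9 to 46.0%), 37.5% from 10 to 50 kb and 33.5% from 50 to 200 kb. Beside regions that kept both it was 48.6% of 570 within 2 kb (44.5 to 52.7%), and beside those that kept H3K4me2 only 36.7% of 210 (30.4 to 43.4%), which overlaps the interval of the members. The median vehicle scores of these neighbours within 2 kb were 184 beside members, 213 beside regions that kept H3K4me1 only and 221 beside regions that kept both, and the part of the score in this difference was not tested. For H3K4me2, 22 such neighbours lay within 2 kb of members, of which 5 overlapped an S2101 peak, which is too few to compare.

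Most members had no other member close by. Another member lay within 50 kb of 153 of them (14.8%, 95% Wilson interval 12.8 to 17.1%), in 73 stretches of at least 2. By the same measure 35.8% of the 1446 regions that kept H3K4me1 only had a neighbour of their own kind, 24.3% of the 633 that kept both and 9.04% of the 387 that kept H3K4me2 only (6.57 to 12.3%). The sets differ in size, and its part in these shares was not tested. There were 5 stretches of 3 or more members. The most compact of 4 members spanned chr7:73454193-73488989, where S2101 had 1 H3K4me1 and 1 H3K4me2 peak, against 6 H3K4me1 and 4 H3K4me2 peaks with vehicle. Neither treatment had H3K4me3 there. Its members had H3K4me1 scores from 192 to 470 and H3K4me2 scores from 134 to 170. The other stretch of 4, chr8:126776948-126856452, held 9 H3K4me1 and 1 H3K4me2 peak with S2101 against 26 and 6 with vehicle, and also held 1 region that kept H3K4me1 only and 1 that kept H3K4me2 only. The shortest stretch of 3 was chr1:34150819-34186020, with 2 H3K4me1 and 2 H3K4me2 peaks with S2101 against 15 and 5 with vehicle. Between its members it also held H3K4me3, as 1 peak with S2101 and 2 with vehicle.

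The share of members differed widely between chromosomes. Over the 19 autosomes, which held 1031 of the 1035 members, it ranged from 15.2 to 55.7% of the regions with both vehicle marks and no H3K4me3, with a mean of 31.7% and an SD of 9.21. Chromosome 7 was highest, with 68 of 122 regions (55.7%, 95% Wilson interval 46.9 to 64.2%), followed by chromosome 13 with 39 of 86 (45.3%, 35.3 to 55.8%). Chromosome 15 was lowest, with 42 of 276 (15.2%, 11.5 to 19.9%), and chromosomes 19 and 11 had 20.9 and 21.1%. The absence of H3K4me1 varied more than that of H3K4me2. The share of these regions without S2101 H3K4me1 ran from 23.2 to 69.7% over autosomes, and that without S2101 H3K4me2 from 62.8 to 82.6%. Across the 19 autosomes the share of members was lower where the median vehicle H3K4me1 score was higher (Spearman's rho −0.82, and −0.45 with the H3K4me2 score, both descriptions over chromosomes of the same libraries). That median was 240 on chromosome 7 and 532 on chromosome 15.

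Shares were also taken within ranges of the H3K4me1 score. Among regions in the lower 2 quintiles of the H3K4me1 score, 51 of 70 were members on chromosome 7 (72.9%, 61.5 to 81.9%), 28 of 65 on chromosome 15 (43.1%, 31.8 to 55.2%) and 48.4% of 1261 on the other autosomes (45.6 to 51.1%). There the interval of chromosome 7 lay above both others, and that of chromosome 15 held the value of the other autosomes. In the middle quintile the shares were 41.4% of 29 (25.5 to 59.3%) on chromosome 7, 16.7% of 42 (8.32 to 30.6%) on chromosome 15 and 30.4% of 628 (26.9 to 34.1%) on the others, with intervals that overlap. In the upper 2 quintiles they were 21.7% of 23 (9.66 to 41.9%), 4.14% of 169 (2.02 to 8.3%) and 9.93% of 1208 (8.37 to 11.7%) in the same order. Median H3K4me1 scores in this upper range were unlike, at 506, 862 and 653, so its shares are not at matched scores. In the lower 2 quintiles the medians were 177, 195 and 183.5. Both chromosomes were picked for their extreme shares, so these differences in part restate that choice. The number of H3K4me1 peaks with S2101, as a ratio to that with vehicle, was 0.414 on chromosome 7 and 0.647 on chromosome 15. Over the autosomes the share of members was also lower where this ratio was higher (Spearman's rho −0.73, a description). The part of this ratio in the shares was not tested. On chromosome X, 3 of 4 regions were members, and 1 further member lay on unplaced sequence.

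**Figure D5:**
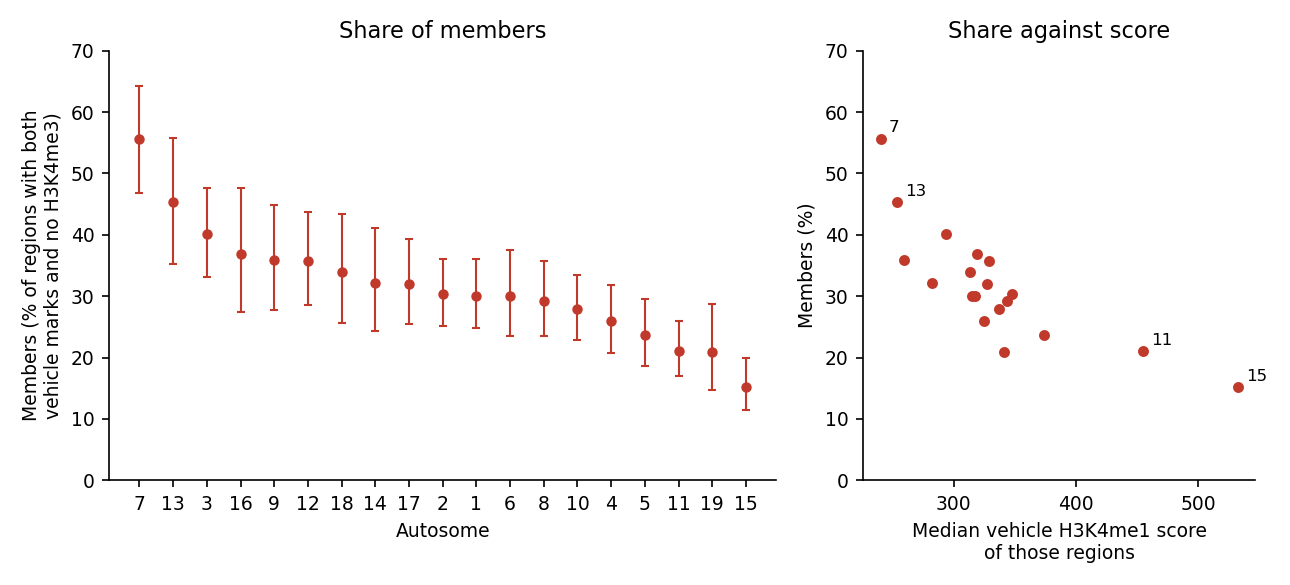
Left, the share of members among regions with both vehicle marks and no H3K4me3 on each autosome, in falling order, with 95% Wilson intervals. Right, the same shares against the median highest vehicle H3K4me1 score of those regions, with chromosomes 7, 13, 11 and 15 named. Chromosome 7 is highest at 55.7% with a median score of 240 and chromosome 15 lowest at 15.2% with 532.

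H3K4me3, which was read only as absence from the region itself, was measured at the peaks nearest to members. Of the 929 vehicle H3K4me3 peaks that were the nearest to some member, 98.4% overlapped an S2101 H3K4me3 peak, against 98.7% of all 13589. For the 841 matched to exactly 1 S2101 peak, the width with S2101 over that with vehicle had a median of 1.05 (95% interval 1.05 to 1.06, quartiles 1.01 and 1.13) and was above 1 in 76.6%. Over all 12212 such peaks the median was 1.06 and the share 74.7%. An S2101 H3K4me2 peak lay on 92.7% of the 929 peaks and a vehicle one on 98.2%, against 89.9% and 96.6% of all vehicle H3K4me3 peaks. S2101 H3K4me1 lay on 10.9% of them and vehicle H3K4me1 on 35.5%, against 9.72% and 33.8%. At these nearest promoter-like peaks the 3 marks thus stood within a few points of their levels over the whole list.

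H3K4me3 listed in a single treatment was rare near members. An S2101-only H3K4me3 peak lay within 5 kb of 31 members (3%, 2.12 to 4.22%) and a vehicle-only one within 5 kb of 5 (0.483%, 0.207 to 1.13%). For the regions that kept H3K4me1 only these counts were 33 of 1446 (2.28%) and 12 (0.830%), with intervals that overlap those of the members. The gap to the nearest H3K4me3 peak of either treatment was longer for members than for the other 2466 regions pooled, at a median of 24768 bp, against 19044.5 bp (95% interval 17811 to 20499 bp). The members' median was the longer one on 13 of 19 autosomes. Regions that kept H3K4me2 only were as far from H3K4me3 as members within the intervals, at 25946 bp (20545 to 30264 bp), while those that kept H3K4me1 only stood at 19044.5 bp (17447 to 20804 bp) and those that kept both at 17313 bp (14657 to 19264 bp). Within quintiles of the H3K4me1 score the members' median was above that of the other regions in each quintile, but the intervals overlapped in all 5, as in the lowest (26583 and 25693 bp).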

How the data were processed

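Of 12 samples, the 6 with peak lists were used, 1 for each of H3K4me1, H3K4me2 and H3K4me3 with S2101 and with vehicle. The 4 input and 2 pan-H3 samples were not analysed here. Peaks were called with MACS in Galaxy, per the file headers, and Bowtie2, deepTools and the mouse build mm9 are named in the submitters' processing notes. For versions, settings and the control used in calling, the sources used here give nothing. The deposited score of each peak is the authors' own value and was used only to rank or filter peaks within a list. All lists begin at a score of about 100.

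Peaks of the 6 lists were merged at an overlap of 1 bp or more. Positions are 1-based. Intervals are 95% Wilson for shares and 95% order-statistic for medians. No test was made, since each mark and treatment has 1 library. The interval code was checked against bedtools 2.31.1 on simulated lists. Calculations used Python 3.11.15 with numpy 2.4.6, pandas 2.3.3 and scipy 1.17.1. The named members are the 10 with the best worst-rank of the 2 vehicle scores, the 5 widest and the 3 nearest to an S2101 H3K4me1 or H3K4me2 peak, beside the 3 regions just outside the rule and the 3 stretches with most members. Gene names, sequences and motifs were not analysed here, because no genome or annotation of mm9 was used. The members and lists were chosen with earlier results of these data known. The alternatives are listed with their values under the dependence on processing.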

Additional observations from a re-analysis of the deposited data

How the results depend on the processing

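With 1 library per mark and treatment, no library could be left out, and counting error alone stands behind each interval. No paired analysis was possible because each mark and treatment has a single library. The number of members, their share of regions with both vehicle marks and no H3K4me3, the median gaps to H3K4me3 and to an S2101 H3K4me1 or H3K4me2 peak, and the median width were recomputed under 10 alternatives. These gave 50 values, of which 26 stayed within the reported interval (counts within 1.5 times) and 24 did not.

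With a score of at least 150 in all lists, the share was 39.0%, the gap to an S2101 peak 8541 bp and the width 1347 bp. Vehicle scores of at least 200 left 166 members, 13.6%, a gap of 3924 bp to an S2101 peak and a width of 1468.5 bp. With lists cut to equal length by score the share was 25.2%, the gap to an S2101 peak 4187 bp and the width 1146.5 bp. Asking for no S2101 peak within 1 kb gave 21.7%, with gaps of 29123 bp to H3K4me3 and 11349 bp to an S2101 peak. Without regions within 5 kb of H3K4me3 these gaps were 35350 and 9081.5 bp. A region was also called lost where S2101 peaks of each mark covered under 50% of the vehicle peaks of that mark. That gave 2389 regions, 68.2%, gaps of 22081 and 0 bp and a width of 1366 bp. Merging within 1 kb gave 24.4%, gaps of 31610.5 and 13490 bp and a width of 1305 bp. Where the number of members stayed within 1.5 times, the regions were not always the same. Identical to reported regions were 376 of 861 members at a score of at least 150, 602 of 740 with equal lengths and 493 of 762 with merging within 1 kb. The number of members moved most with the vehicle score limit and with what counts as lost. The values stayed within the limits when 200 bp had to be shared by both vehicle marks, when regions were built from vehicle peaks only, and, chosen after seeing the data, without chromosomes 7 and 15 (925 members, 29.8%).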
